A study of Mus musculus with 21 samples.

Results

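A group of 9 genes for amino acid carriers of the cell surface was followed after optic nerve crush in libraries of sorted mouse retinal ganglion cells: Slc7a5, Slc3a2, Slc7a11, Slc7a1, Slc7a3, Slc1a4, Slc1a5, Slc38a1 and Slc38a2. They were chosen by name from 17164 counted genes, as carriers tied to the stress response that ATF4 leads, and all 9 members were counted and passed the filter on low counts. The study sequenced RNA of sorted retinal ganglion cells, which send the retina's output to the brain, from C57BL/6 mice 3 days after a crush of the optic nerve. The mice had received a control (labelled wild type) or a guide RNA against 1 of 4 transcription factors, ATF3, ATF4, C/EBPγ (labelled CEBPG) or CHOP, the product of Ddit3. There were 4 control, 5 ATF3, 2 ATF4, 4 CEBPG and 5 CHOP knockout libraries, and all of them came from crushed nerves, so none of the groups shows the uninjured level. A further library whose title and genotype label disagree was left in no group and not used. How the guides and Cas9 were delivered, which marker the sort used and whether a library pooled mice are not named in the sources used here, so each p-value measures the spread between libraries, which may be partly technical.

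Cells short of amino acids, or with unfolded protein in the endoplasmic reticulum, phosphorylate the initiation factor eIF2α, which slows translation in general while raising that of ATF4. ATF4 pairs with C/EBP proteins, C/EBPγ among them, on C/EBP-ATF response elements and switches on genes for amino acid uptake and synthesis, and it also induces CHOP and ATF3. In neurons after axon injury this pathway is known for its part in the decision between survival and death. The carriers work in groups: Slc3a2 is the heavy chain that brings the light chains Slc7a5 (LAT1) and Slc7a11 (xCT) to the membrane, Slc7a1 and Slc7a3 carry arginine and lysine, Slc1a4 and Slc1a5 (ASCT1 and ASCT2) exchange small neutral amino acids, and Slc38a1 and Slc38a2 (SNAT1 and SNAT2) take up glutamine with sodium.

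In the mm10 build the genes lie apart on 8 chromosomes, with Slc38a1 and Slc38a2 as neighbours: Slc7a5 at chr8:121881150-121907694, Slc3a2 at chr19:8706882-8723369, Slc7a11 at chr3:49892526-50443614, Slc7a1 at chr5:148327410-148399904, Slc7a3 at chrX:101079210-101086020, Slc1a4 at chr11:20302180-20332713, Slc1a5 at chr7:16781340-16798274, Slc38a1 at chr15:96571418-96642913 and Slc38a2 at chr15:96687392-96699730. All are protein-coding, and each value is the sum over the gene's exons. The Slc7a11 span holds the antisense gene Gm37854, the pseudogenes Gm37826, Gm2345 and, on the same strand, Gm37692, and Gm37498, also on the same strand. Slc7a5 lies inside the much longer Gm20388 on the opposite strand. None of these is in the count table, and whether the counting used strand is not named in the sources used here, so their reads cannot be told apart from those of the carriers.

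The libraries held 6401446 to 32776378 counted reads. By the submitters' sample sheet, all 4 controls were male and of batch 2, both ATF4 libraries of batch 1, 1 from a female and 1 from a male, and all ATF3, CEBPG and CHOP libraries female and of batch 3, all at the same age of 6 to 7 weeks. A knockout and its batch therefore cannot be told apart against control, and only the ATF3, CEBPG and CHOP knockouts can be compared within 1 batch and sex. The 14 ganglion cell markers took a mean of 0.0643% to 0.0849% of the reads per group, with Pou4f2 at 0 in all 4 CEBPG libraries, while the 12 rod markers took 3.04% to 4.67% in the controls and at most 0.745% in any knockout library, all 12 of them lower in each knockout. The 11 amacrine cell markers went from a mean of 0.15% to between 0.305% and 0.577%, and the 10 measured T and NK lymphocyte markers from 0.0011% to 0.189% in the CEBPG knockouts. Of 9 cone markers 8 were lower in ATF3, CEBPG and CHOP and 1 in ATF4, where 1 was higher, and of 10 bipolar cell markers 10 were lower in CEBPG and in CHOP and 3 in ATF3, where 1 was higher, and in ATF4. The part of these cells in the results against control was not tested, and in sorted bulk samples fewer cells of a type and less RNA per cell cannot be told apart. The targeted transcripts check the labels only in part within batch 3, and an edit need not lower a transcript. Atf3 was lower in the ATF3 than in the CEBPG knockouts (log2 fold change -0.96, SE 0.24, adjusted p = 0.0063) and was not called against CHOP (0.05, SE 0.23), Ddit3 was not called between CHOP and ATF3 (-0.08 for ATF3 against CHOP) or CEBPG (0.02 for CEBPG against CHOP), and Cebpg was higher in the CEBPG than in the CHOP knockouts (0.42, SE 0.15, adjusted p = 0.0475). Atf4 had a mean of 154 CPM in the ATF4 group, 87.9 in ATF3, 130 in CEBPG, 106 in CHOP and 301 CPM in the controls. CEBPG replicates 6 and 8 stood apart from all other libraries on principal component 4, at opposite ends (-99.33 and 102.1). Values without these libraries are given where they change a call.

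Against control, carriers moved in both directions. In the ATF3 knockouts 2 members were called higher (Slc7a11 and Slc38a1) and 4 lower (Slc7a5, Slc3a2, Slc7a1 and Slc1a4), where called means an edgeR quasi-likelihood p below 0.05 after Benjamini-Hochberg adjustment over 16797 genes. Of all genes tested, 18.6% were called higher and 14.8% lower in that comparison. In the ATF4 knockouts 1 member was higher (Slc38a1) and 3 lower (Slc1a4, Slc1a5 and Slc38a2), beside 16.6% and 14.6% of all genes. In the CEBPG knockouts 1 was higher (Slc1a5) and 3 lower (Slc7a5, Slc3a2 and Slc1a4), beside 18.3% and 15% of all genes. In the CHOP knockouts 2 were higher (Slc7a11 and Slc38a1) and 1 lower (Slc3a2), beside 18.1% and 15.4% of all genes. The median log2 fold change of the 9 members was -0.48 in ATF3, -0.2 in ATF4, -0.42 in CEBPG and -0.19 in CHOP knockouts, where the median over all genes lay between 0 and 0.06. All 4 comparisons share the same 4 controls. The ranges of the libraries lay apart from control for 5 members in ATF3, 3 in ATF4, 4 in CEBPG and 3 in CHOP. Over all genes tested they lay apart for 34.3%, 44.8%, 26.9% and 28.9%, so ranges that do not overlap were common. Leaving out control replicate 4 took the ATF3 count from 6 to 3 members and the ATF4 count from 4 to 2, and leaving out ATF4 replicate 1 took the latter to 1.

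**Figure D1:**
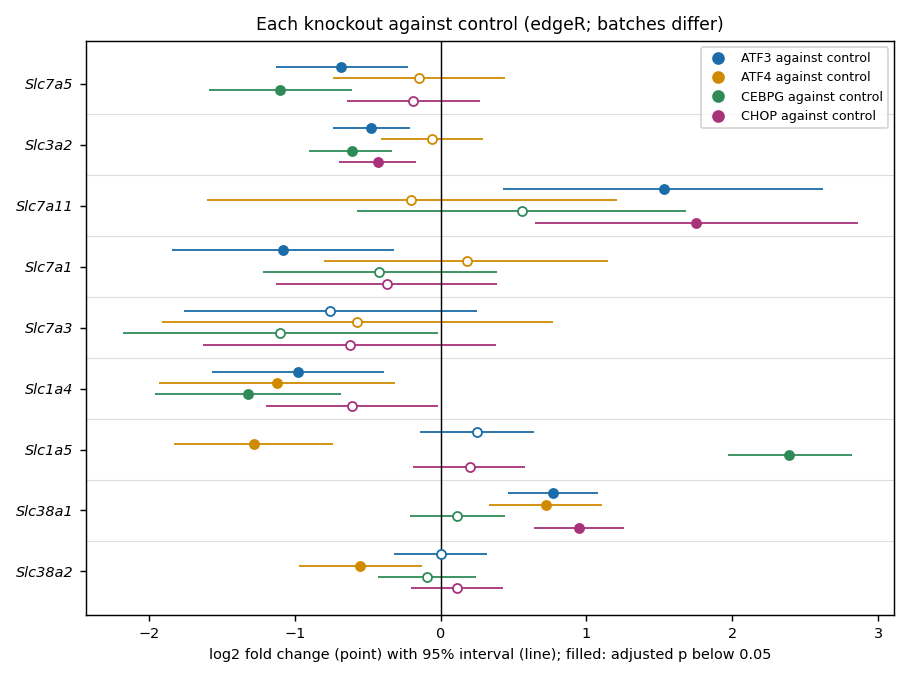
Log2 fold change of each carrier against control (horizontal axis) with its 95% interval, for the ATF3, ATF4, CEBPG and CHOP knockouts; filled points were called. The CEBPG point of Slc1a5 at 2.39 is the farthest from 0, and the Slc1a4 points lie below 0 in all 4 knockouts, from -1.32 to -0.61.

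Within batch 3 between 0 and 2 of the 9 members were called in each direction of a comparison. Slc1a5 was lower and Slc38a1 higher in the ATF3 than in the CEBPG knockouts, 1 member in each direction, beside 10.2% of all genes lower and 10.1% higher. Against the CHOP knockouts, the CEBPG knockouts had 1 member higher (Slc1a5) and 2 lower (Slc7a5 and Slc38a1), beside 13.5% and 13.2% of all genes. Between the ATF3 and CHOP knockouts none of the 9 members was called in either direction by edgeR, beside 1.51% of all genes higher and 0.756% lower. At an unadjusted p under 0.05 there were 2, Slc7a5 and Slc7a1, and DESeq2 also called none after adjustment. Fitted on those 10 libraries alone, Slc7a5 was called lower in the ATF3 knockouts (-0.49, edgeR adjusted p = 0.023). Library ranges lay apart for 3 members in ATF3 against CEBPG, 2 in ATF3 against CHOP and 3 in CEBPG against CHOP. Over all genes tested the shares were 22.3%, 8.06% and 21.2%.

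**Figure D2:**
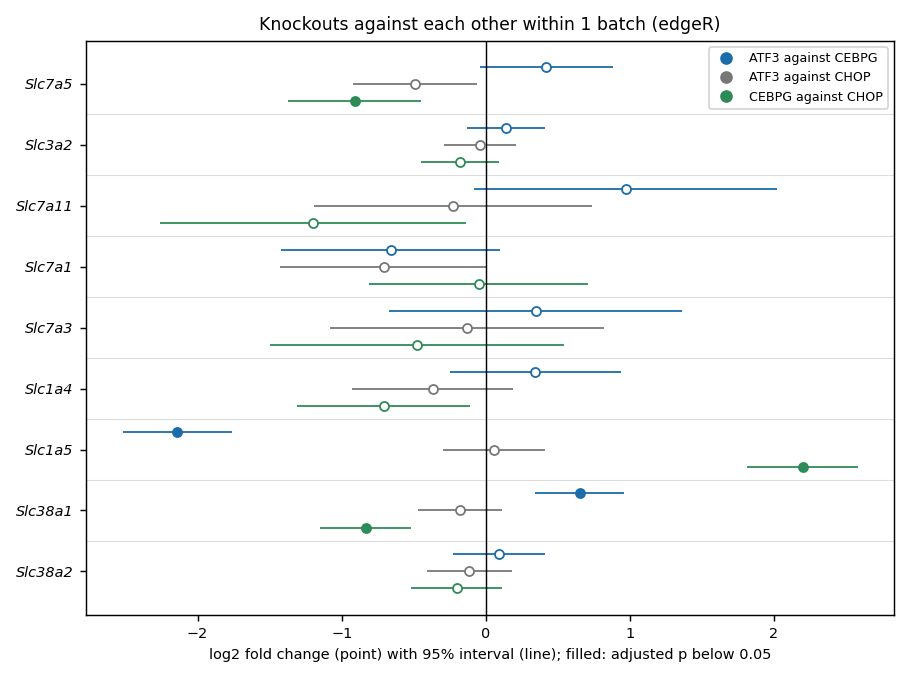
Log2 fold change of each carrier (horizontal axis) with its 95% interval between the ATF3, CEBPG and CHOP knockouts, which share a batch and a sex; filled points were called. Slc1a5 stands at -2.14 and 2.2 in the comparisons that involve the CEBPG knockouts and at 0.06 between ATF3 and CHOP.

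Levels differed by orders of magnitude between the carriers. They are given in CPM, a gene's reads scaled to the library's total with TMM factors. Scaled per kilobase of exon, so that genes can be compared, Slc3a2 led in the controls at 72.2 ± 6.79 CPM per kb (SD, n = 4). Slc38a2 (17.6 ± 3.38), Slc7a5 (17.3 ± 6.14), Slc38a1 (10.8 ± 2.33), Slc1a4 (10 ± 2.67) and Slc1a5 (7.79 ± 0.955 CPM per kb) followed, each overlapping the range of its neighbours in this order. Slc7a3 (2.63 ± 1.04), Slc7a1 (0.825 ± 0.217) and Slc7a11 (0.194 ± 0.13 CPM per kb) came last, and their ranges lay apart from each other and from those above. Slc7a11 was thus the scarcest carrier in the control libraries, at 1.34 to 5.34 CPM per library. Rod markers took a mean of 3.81% of the control reads and ganglion cell markers 0.069%. The order is therefore that of the sorted samples, and the level within ganglion cells cannot be told from it. In the CEBPG knockouts Slc1a5 took the second place with 40.9 ± 6.58 CPM per kb, and its range met that of Slc3a2 (47.1 ± 12.5). In the ATF3 knockouts the mean of Slc7a11 (0.549 ± 0.157, n = 5) passed that of Slc7a1 (0.389 ± 0.129 CPM per kb), with overlapping ranges. In the CHOP knockouts the means of these genes were nearly equal, at 0.641 ± 0.279 for Slc7a11 and 0.637 ± 0.204 CPM per kb for Slc7a1 (n = 5). These lengths are unions of all annotated exons, so a gene expressed from a short transcript is placed too low.

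**Figure D3:**
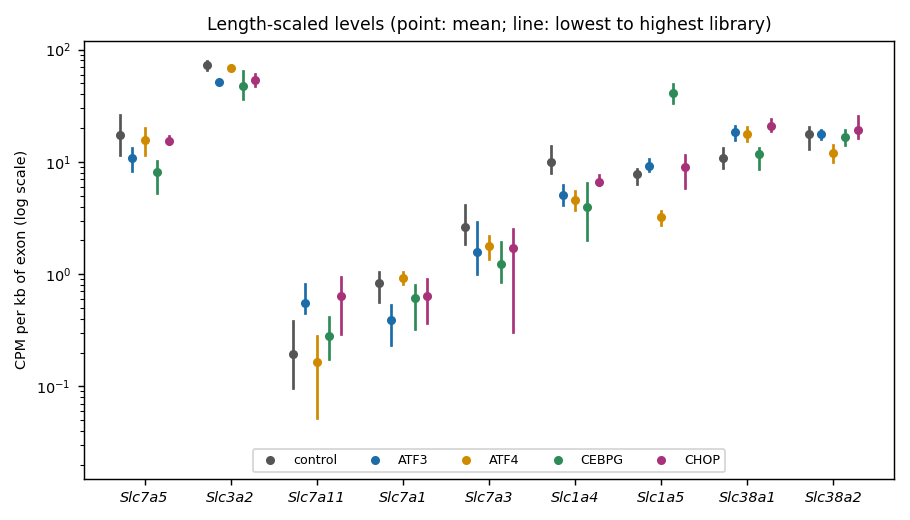
Length-scaled level of the 9 carriers, in CPM per kb of exon on a log axis, in the control, ATF3, ATF4, CEBPG and CHOP groups; points are means and lines run from the lowest to the highest library. Slc3a2 is highest and Slc7a11 lowest in the controls, and Slc1a5 of the CEBPG group lies at 40.9.

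The large neutral amino acid exchanger was described through its light chain first. Slc7a5 takes up leucine and other large neutral amino acids in exchange for glutamine. Its level in the 4 controls was 96.1, 61.7, 57 and 42.2 CPM, the widest spread of any group for this gene. The ATF3 libraries had 49.7, 30.9, 37.1, 41.9 and 41.6 CPM, and the CEBPG libraries 32.7, 19.6, 37.4 and 30 CPM. All 4 CEBPG libraries were below the lowest control, while 1 of the ATF3 libraries reached into the control range. Against control the difference was -1.1 on the log2 scale for CEBPG (SE 0.23, adjusted p = 0.000558) and -0.68 for ATF3 (SE 0.21, adjusted p = 0.0164). The ATF3 call rests on control replicate 4, the highest library, without which the difference was -0.41 (adjusted p = 0.134). The ATF4 libraries, at 42.4 and 73.7 CPM, and the CHOP libraries, at 62.9, 52.9, 53.7, 55.9 and 56.8 CPM, lay within the control range. Their differences from control were -0.15 (95% interval -0.74 to 0.44) and -0.19 (-0.64 to 0.27). Within batch 3 every CEBPG library was below every CHOP library, and the difference was -0.91 (SE 0.22, adjusted p = 0.00309). That between the ATF3 and CEBPG knockouts was 0.42, with an interval from -0.04 to 0.88.

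Slc3a2, the heavy chain, was the highest of the 9 carriers per kb of exon and had the smallest spread within groups (biological coefficient of variation 0.14). The controls had 274, 231, 277 and 237 CPM. The ATF3 libraries had 174, 180, 186, 185 and 191 CPM, the CHOP libraries 184, 185, 169, 213 and 192 CPM, and the CEBPG libraries 171, 129, 138 and 226 CPM. No library of these 3 groups reached the lowest control, at 231 CPM, although CEBPG replicate 9 came close. Against control Slc3a2 was 1.39-fold lower in the ATF3 (log2 fold change -0.48, SE 0.13, adjusted p = 0.00487), 1.53-fold lower in the CEBPG (-0.61, SE 0.13, adjusted p = 0.000882) and 1.35-fold lower in the CHOP knockouts (-0.43, SE 0.13, adjusted p = 0.00941). Without CEBPG replicates 6 and 8 the CEBPG difference was -0.33 (adjusted p = 0.0515). The ATF4 libraries, at 256 and 231 CPM, were at the control level (-0.06, 95% interval -0.41 to 0.29). No difference within batch 3 was called. The CEBPG knockouts became lower than the ATF3 (0.33 for ATF3 against CEBPG, adjusted p = 0.0409) and CHOP knockouts (-0.35, adjusted p = 0.0224) once CEBPG replicate 9 was left out.

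The proportion of heavy to light chain transcript overlapped between the controls and each knockout. Slc3a2 per kb divided by Slc7a5 per kb had a median of 4.52 in the controls (3 to 5.89), 4.82 in ATF3 (3.69 to 6.11), 4.82 in ATF4 (3.3 to 6.35), 6.22 in CEBPG (3.87 to 7.92) and 3.56 in CHOP knockouts (3.08 to 3.99). In the authors' deposited table of 1 comparison per knockout, whose reference group the table does not name, Slc7a5 stood at -1.27 in ATF3 (FDR 0.0399) and -1.17 in CEBPG (FDR 0.00256), and Slc3a2 at -1.04, -0.9 and -0.88 in ATF3, CEBPG and CHOP (FDR 0.00456, 0.000201 and 0.0444). The model and log base of the authors' deposited table are not named in the sources used here either, so its values, here and below, are set beside those of the counts without a test.

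Slc7a11 imports cystine in exchange for glutamate and so feeds glutathione synthesis. Its promoter is shown because it holds the element that ATF4 and its C/EBP partners bind. The 170 bases from -150 to +20 around the transcription start, from RefSeq on GRCm38.p6 at chr3:50443594-50443763 on the minus strand, read as follows, with capitals on each match to TGATGNAA on either strand.
Slc7a11: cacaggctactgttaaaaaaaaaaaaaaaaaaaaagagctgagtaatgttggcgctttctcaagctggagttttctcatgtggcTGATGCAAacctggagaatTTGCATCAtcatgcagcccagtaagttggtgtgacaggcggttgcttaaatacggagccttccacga
The window of 300 bases holds 2 such matches, facing each other, the first starting 66 bases and the other 47 bases before the start site. Promoter windows were at hand for 5 of the 9 members, and of all 32851 promoters of that length 3.969% hold at least 1 match.

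The Slc7a11 transcript was scarce, with 15 reads in the lowest control library. The controls had 2.34, 5.34, 1.79 and 1.34 CPM. The ATF3 libraries had 6.3, 6.25, 11.4, 6.4 and 7.9 CPM, all above the highest control, and the CHOP libraries 4.06, 6.59, 8.3, 12.7 and 13 CPM, 4 of them above it. Slc7a11 was 2.88-fold higher in the ATF3 group (1.53 on the log2 scale, SE 0.51, adjusted p = 0.0249) and 3.37-fold higher in the CHOP group (1.75, SE 0.52, adjusted p = 0.0109). The call in ATF3 did not hold without ATF3 replicate 7 (1.34, adjusted p = 0.068), control replicate 4 (1.47, 0.0572), control replicate 7 (1.37, 0.071) or control replicate 8 (1.27, 0.0938). The CEBPG libraries, at 4.16, 2.43, 5.79 and 3.16 CPM, overlapped the controls (0.56, 95% interval -0.57 to 1.68), and so did the ATF4 libraries at 3.9 and 0.73 CPM (-0.2, interval -1.6 to 1.21). All 5 ATF3 libraries were above all 4 CEBPG libraries, where the difference was 0.97 (SE 0.49) and was not called (adjusted p = 0.178). The difference of the CEBPG from the CHOP knockouts, -1.2 (SE 0.5), missed the threshold (adjusted p = 0.0799) and passed it in a fit of the 14 batch 3 libraries alone (-1.19, adjusted p = 0.0288). The authors' deposited table gives negative values for Slc7a11, -0.99 in ATF3, -0.96 in CEBPG and -1.25 in CHOP (FDR 0.634, 0.334 and 0.627), none of which passes 0.05.

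The carriers of arginine and lysine were both low. Slc7a1, the widely expressed CAT-1, was at 12.2, 10.9, 8.5 and 6.52 CPM in the controls and at 3.79, 5.96, 2.68, 3.89 and 6.1 CPM in the ATF3 libraries. All 5 ATF3 libraries were below the lowest control, a 2.12-fold difference (log2 fold change -1.08, SE 0.36, adjusted p = 0.0221). It was no longer called without ATF3 replicate 7 (-0.94, adjusted p = 0.0606), control replicate 4 (-0.94, 0.0708) or control replicate 5 (-1.04, 0.0506). The CEBPG (3.71 to 9.27 CPM), CHOP (4.24 to 10.4 CPM) and ATF4 libraries (9.37 and 12.1 CPM) overlapped the controls, with differences of -0.42, -0.37 and 0.18 that were not called. Slc7a3, CAT-3 of neurons, was at 6.97 to 15.6 CPM in the controls, 3.78 to 11.1 in ATF3, 5.11 and 8.33 in ATF4, 3.24 to 7.26 in CEBPG and 1.16 to 9.48 CPM in CHOP libraries. Its differences from control ran from -1.1 in CEBPG (95% interval -2.18 to -0.02, adjusted p = 0.0994) to -0.57 in ATF4 (-1.91 to 0.77), and none was called. A 2-fold lower level of Slc7a3 lay inside each of the 4 intervals. The spread of Slc7a3 between libraries (biological coefficient of variation 0.49) was above that of Slc7a1 (0.37). RefSeq gives more than 1 window for Slc7a1. That at chr5:148399855-148400154 holds an AP-1 element (TGANTCA, present in 7.808% of promoters) that starts 123 bases before its start site. The other, at chr5:148392766-148393065, holds no AP-1 element, and TGATGNAA is in neither.

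Slc1a4 exchanges serine, alanine, cysteine and threonine across the membrane. Its promoter is printed beside that of Slc7a11 because it holds the same element, here across the start site: the 170 bases at chr11:20332694-20332863 on the minus strand of GRCm38.p6, from RefSeq, with the match in capitals.
Slc1a4: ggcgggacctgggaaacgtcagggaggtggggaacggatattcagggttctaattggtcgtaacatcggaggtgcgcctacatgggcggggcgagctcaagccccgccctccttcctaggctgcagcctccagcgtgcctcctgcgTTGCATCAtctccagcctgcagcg
The single match, on the reverse strand, starts 4 bases before the start site. The cyclic AMP element TGACGTCA, found in 1.79% of promoters, was in none of the windows at hand. The antioxidant element TGACNNNGC, in 12.392%, was in that of Slc38a2 and in the Slc7a1 window with the AP-1 element, but not in the other Slc7a1 window. The window of Slc3a2, at chr19:8713848-8714147, held none of the 4 motifs. It lies inside the gene's span of chr19:8706882-8723369 on the minus strand, and the sequence upstream of that span was not searched.

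The transcript of Slc1a4 was at 54.7, 36.9, 34.5 and 31.2 CPM in the controls. The ATF3 libraries had 19.3, 24.3, 16.2, 19.2 and 20.8 CPM, the ATF4 libraries 14.7 and 21.6 CPM, and the CEBPG libraries 25.5, 7.9, 8.15 and 21 CPM. Each library of these groups was below the lowest control, and CEBPG replicates 6 and 8 were the lowest of all. Slc1a4 was 1.97-fold lower in the ATF3 (log2 fold change -0.98, SE 0.28, adjusted p = 0.00819), 2.17-fold lower in the ATF4 (-1.12, SE 0.38, adjusted p = 0.0272) and 2.5-fold lower in the CEBPG knockouts (-1.32, SE 0.3, adjusted p = 0.00129). Without CEBPG replicates 6 and 8 the CEBPG difference was -0.73 (adjusted p = 0.0275). The ATF4 call was lost without ATF4 replicate 1 (-0.87, adjusted p = 0.249), ATF4 replicate 3 (-1.42, 0.0502) or control replicate 4 (-0.91, 0.0793). The CHOP libraries had 24.8, 24.3, 29.7, 25.5 and 24.5 CPM, also all below the lowest control, with a difference of -0.61 that was not called (SE 0.28, adjusted p = 0.0956) and was called in a fit of those 9 libraries alone (adjusted p = 0.0191). Within batch 3 the CEBPG knockouts were not called lower than the CHOP knockouts (-0.71, adjusted p = 0.066). That difference was called without CEBPG replicate 10 (-1.03, adjusted p = 0.0103) or CEBPG replicate 9 (-0.87, adjusted p = 0.0408), and it fell to -0.12 (adjusted p = 0.772) without replicates 6 and 8. The authors' deposited table calls none of the 4 differences of Slc1a4 (-0.31, -1.65, -0.57 and 0.28 in ATF3, ATF4, CEBPG and CHOP).

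Slc1a5 takes up glutamine, and is used by dividing and activated cells. It showed the largest difference of any member, and in opposite directions in the ATF4 and CEBPG knockouts. The controls had 33.5, 34.2, 35.7 and 26.7 CPM. The CEBPG libraries had 205, 177, 141 and 159 CPM and the ATF4 libraries 11.4 and 15.3 CPM. The CEBPG libraries were all above, and the ATF4 libraries both below, every library of the other 3 groups. Slc1a5 was 5.25-fold higher in the CEBPG knockouts (log2 fold change 2.39, SE 0.2, adjusted p = 1.45e-09) and 2.43-fold lower in the ATF4 knockouts (-1.28, SE 0.25, adjusted p = 0.000442). The ATF3 libraries (35.2, 43.6, 34.6, 36.9 and 43 CPM) and the CHOP libraries (44.2, 41.1, 48.4, 24.2 and 28.2 CPM) overlapped the controls, with differences of 0.25 (95% interval -0.14 to 0.64) and 0.2 (-0.19 to 0.58). The authors' deposited table gives 2.59 for CEBPG (FDR 5.84e-07) and -1.34 for ATF4 (FDR 0.0773).

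The rise of Slc1a5 in the CEBPG knockouts was also found within batch 3. Its level was 4.41-fold above the ATF3 (-2.14 for ATF3 against CEBPG, SE 0.18, adjusted p = 2.61e-08) and 4.58-fold above the CHOP knockouts (2.2, SE 0.18, adjusted p = 1.11e-08). Without CEBPG replicates 6 and 8 it was 2.52 against control. Markers of immune cells were read beside it. The 10 measured T and NK lymphocyte markers of 14 listed took 0.000728% to 0.0016% of the reads in the controls, 0.0257% to 0.0312% in ATF3, 0.00173% to 0.00665% in ATF4, 0.151% to 0.232% in CEBPG and 0.029% to 0.0431% in CHOP libraries. All 10 of them were higher in the CEBPG knockouts than in the controls, the ATF3 and the CHOP knockouts, and none was at 0 in every library of any group. The 7 measured monocyte and neutrophil markers of 8 took 0.0517% to 0.0627% in the CEBPG and 0.0153% to 0.0226% in the control libraries. They took 0.036% to 0.0434% in ATF3, 0.0121% to 0.0138% in ATF4 and 0.0175% to 0.0253% in CHOP. S100a8 and S100a9 were at 0 in all ATF4 and CHOP libraries. Of the 7 markers, 6 were higher and 0 lower in CEBPG than in control, 3 and 0 in ATF3, 0 and 1 in ATF4 and 2 and 2 in CHOP. Within batch 3, 7 were higher and 0 lower in CEBPG than in CHOP, and 0 higher and 4 lower in ATF3 than in CEBPG. The 12 microglia markers took 0.6% to 0.699% in CEBPG, overlapping the controls at 0.386% to 0.618%. Their share was 0.5% to 0.569% in ATF3, 0.525% to 0.675% in ATF4 and 0.332% to 0.482% in CHOP. Singly, 7 of the 12 were higher and 0 lower in CEBPG than in control, 2 and 0 in ATF3 and 1 and 4 in CHOP. Within batch 3, 10 were higher and 0 lower in CEBPG than in CHOP, and 1 higher and 4 lower in ATF3 than in CEBPG. Within the CEBPG group, the library highest in Slc1a5, replicate 10 at 205 CPM, was also the highest in the lymphocyte markers at 0.232%, while replicate 6, the next in Slc1a5 at 177 CPM, was the lowest in them at 0.151%. The part of immune cells in the level of Slc1a5 was not tested. In the ATF3 and CHOP knockouts all 10 lymphocyte markers were also higher than in the controls, and Slc1a5 differed by 0.25 and 0.2 there. In the ATF4 knockouts 7 of the 10 lymphocyte markers were higher. Of the 12 microglia markers, 5 were higher and 1 lower there, and Slc1a5 differed by -1.28.

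**Figure D4:**
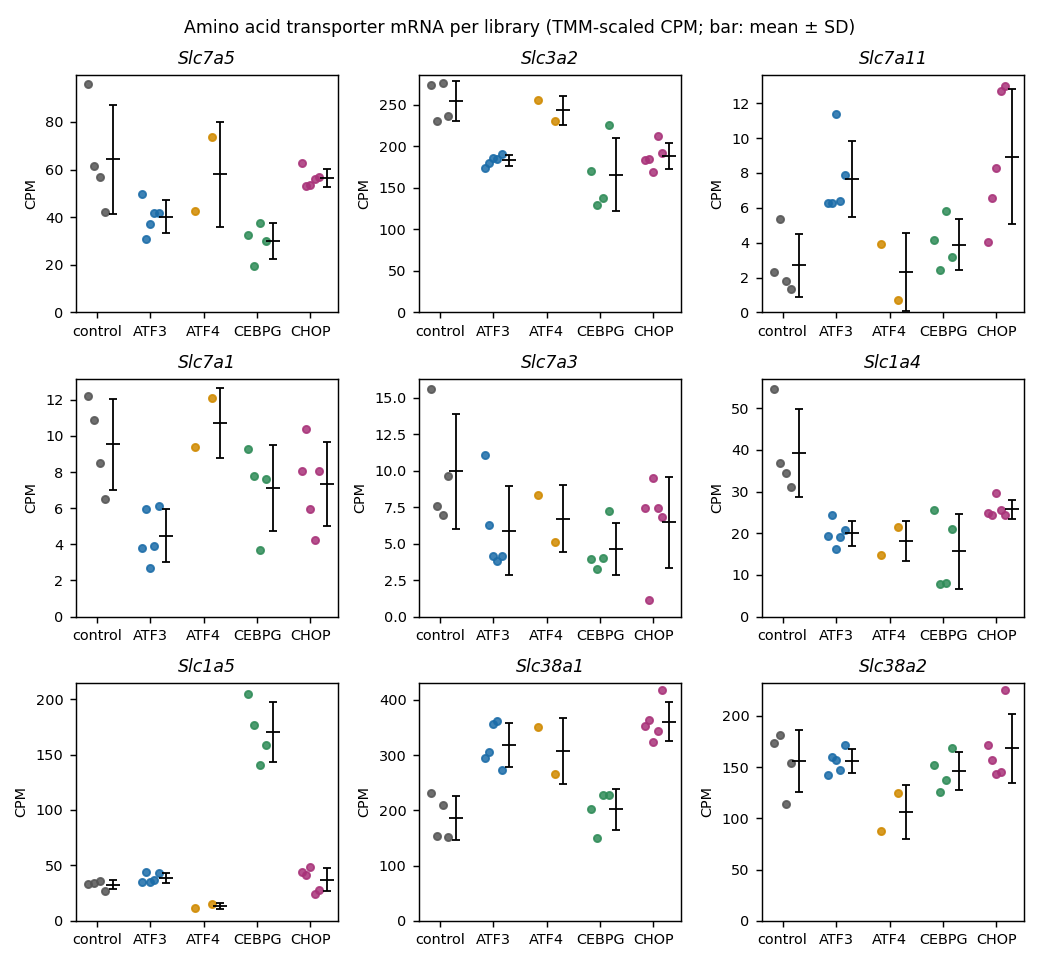
Level of each carrier in every library, in TMM-scaled CPM (vertical axis, linear from 0), for the control, ATF3, ATF4, CEBPG and CHOP groups; points are libraries and bars mean ± SD. The CEBPG libraries of Slc1a5, from 141 to 205 CPM, lie apart from all others, and the CHOP libraries of Slc38a1, from 324 to 417 CPM, lie above all controls.

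Slc38a1, the system A carrier that supplies neurons with glutamine for transmitter synthesis, was higher in most knockouts. The controls had 231, 153, 210 and 152 CPM. The ATF3 libraries had 294, 306, 356, 362 and 273 CPM, the CHOP libraries 353, 364, 324, 344 and 417 CPM and the ATF4 libraries 350 and 265 CPM. All 12 of these libraries were above the highest control. Slc38a1 was 1.7-fold higher in the ATF3 (log2 fold change 0.77, SE 0.15, adjusted p = 0.00023), 1.93-fold higher in the CHOP (0.95, SE 0.15, adjusted p = 1.88e-05) and 1.65-fold higher in the ATF4 knockouts (0.72, SE 0.18, adjusted p = 0.00384). The ATF4 call was lost without ATF4 replicate 1 (0.5, adjusted p = 0.134). The CEBPG libraries overlapped the controls at 203, 149, 227 and 228 CPM (0.11, 95% interval -0.21 to 0.44). Within batch 3 they were all below every ATF3 and CHOP library, and ATF3 was 0.65 above CEBPG (SE 0.15, adjusted p = 0.00216) and CEBPG -0.83 from CHOP (SE 0.15, adjusted p = 0.00016). Amacrine cell markers took 0.464% to 0.475% of reads in the ATF3, 0.545% to 0.626% in the CHOP, 0.398% to 0.433% in the ATF4, 0.269% to 0.337% in the CEBPG and 0.119% to 0.181% in the control libraries. Of the 11 markers, 10 were higher in the ATF3 and CHOP, and 9 in the ATF4 and CEBPG knockouts than in the controls, and none was at 0 throughout a group. Their part in the level of Slc38a1 was not tested. The authors' deposited table holds no call for Slc38a1, with 0.03, 0.41, -0.21 and 0.25 in ATF3, ATF4, CEBPG and CHOP.

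Slc38a2, the member of the pair known for its induction when amino acids run short, had the smallest spread over the 20 libraries (root mean square 0.27 on the log2 scale around its mean). It was at 114 to 181 CPM in the controls, 142 to 172 in the ATF3, 126 to 169 in the CEBPG and 143 to 225 CPM in the CHOP libraries, all overlapping. The differences from control were 0 in the ATF3 (95% interval -0.32 to 0.32), -0.09 in the CEBPG (-0.43 to 0.24) and 0.11 in the CHOP knockouts (-0.2 to 0.43). In the ATF4 libraries it was at 87.6 and 125 CPM, 1 below and 1 inside the control range, and was called 1.46-fold lower (-0.55, SE 0.2, adjusted p = 0.037). That call was lost without ATF4 replicate 1 (-0.31, adjusted p = 0.417), control replicate 4 (-0.49, 0.08) or control replicate 5 (-0.51, 0.0662), and in a fit of the 6 libraries alone (-0.58, 0.0728). The authors' deposited table puts Slc38a2 at -0.01 in ATF4 and at -0.59 in ATF3 (FDR 0.0673).

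Over the 20 libraries, the genes whose profile lay nearest to a carrier were found by the root mean square difference of log2 CPM, each gene centred on its own mean. The nearest to Slc3a2 were the glucose carrier Slc2a1 and Men1 (0.16) and the glycolytic enzyme Pfkl (0.17). Nearest to Slc38a2 were Wac (0.15), Trnt1 and Hnrnpu (0.16), to Slc38a1 Lin7a (0.17), D3Bwg0562e and the neuronal gene Nsg1 (0.18), and to Slc7a5 Peg13, Smpd1 and Nacc1 (0.31). The nearest to Slc1a4 were Il33, the zinc carrier Slc30a1 (0.32) and the sterol enzyme Sqle (0.33). Slc1a5 lay nearest to Cish, a suppressor of cytokine signalling (0.32), Cd48, a leukocyte surface protein (0.34), and the transcription factor Nfatc1 (0.36). Among the members themselves, the smallest distance was between the partners Slc7a5 and Slc3a2 (0.4) and the largest was 1.51, between Slc7a3 and Slc1a5. The smallest was closely followed by Slc3a2 with Slc38a2 (0.42) and Slc7a5 with Slc1a4 (0.46). Genes that vary little lie near each other by this measure, and Slc3a2 and Slc38a2 varied by 0.29 and 0.27 around their own means. Slc7a11, Slc7a1 and Slc7a3 averaged under 10 CPM and were not searched. All profiles share library and batch.

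Other amino acid carriers set these values in context. Of 43 tested carriers of the plasma membrane, vesicles, lysosomes and mitochondria, 15 were higher and 7 lower than control in ATF3, 10 and 7 in ATF4, 9 and 9 in CEBPG and 16 and 6 in CHOP knockouts, with medians of 0.31, 0.19, 0.11 and 0.36. Of all genes tested, 18.6% were higher and 14.8% lower in ATF3, 16.6% and 14.6% in ATF4, 18.3% and 15% in CEBPG and 18.1% and 15.4% in CHOP. These shares, and all-gene medians of 0 to 0.06, also stand beside the lists that follow. Slc38a3, the glutamine carrier of Müller glia (SNAT3), went from 477 ± 43.8 CPM in the controls to 171 ± 12.5 in ATF3, 242 ± 3.91 in ATF4, 89.1 ± 21 in CEBPG and 129 ± 20.3 CPM in CHOP knockouts. Its differences were -1.48, -0.98, -2.42 and -1.89, each called. Of 12 Müller glia markers, 2 were higher and 5 lower in ATF3, 7 and 0 in ATF4, 2 and 7 in CEBPG and 1 and 5 in CHOP, and their summed share of reads was 0.526% to 0.844% in the controls, 1.06% to 1.23% in ATF3, 1.02% to 1.26% in ATF4, 0.82% to 1.02% in CEBPG and 0.575% to 0.714% in CHOP, with none at 0 throughout a group. Their part in the level of Slc38a3 was not tested. The taurine carrier Slc6a6 fell by 1.18, 0.89, 1.88 and 1.32 in the same order, and the mitochondrial glutamate carrier Slc25a22 by 1.03, 0.7, 1.64 and 1.26. The glycine carrier Slc6a9, itself an amacrine marker, rose by 1.52, 1.81, 0.63 and 1.98, and Slc7a14 by 1.25, 1.24, 1.07 and 1.62. Within batch 3, 17 of the 43 were higher and 1 lower in the ATF3 than in the CEBPG knockouts (median 0.4), 2 were higher and 22 lower in the CEBPG than in the CHOP knockouts (median -0.53), and none was called between ATF3 and CHOP. Over all genes, here and for the lists that follow, 10.1% were higher and 10.2% lower in ATF3 than in CEBPG. The shares were 13.5% and 13.2% in CEBPG against CHOP and 1.51% and 0.756% in ATF3 against CHOP. The carriers higher in CEBPG than in CHOP were Slc7a7 (0.74, SE 0.24) and Slc7a6 (0.59, SE 0.2), light chains that also pair with Slc3a2. Slc7a6 was also called higher in CEBPG than in control (0.55, SE 0.21). Slc7a7 was not called in CEBPG against control (0.45, SE 0.26) or in ATF3 against CEBPG (-0.28, SE 0.24).

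**Figure D5:**
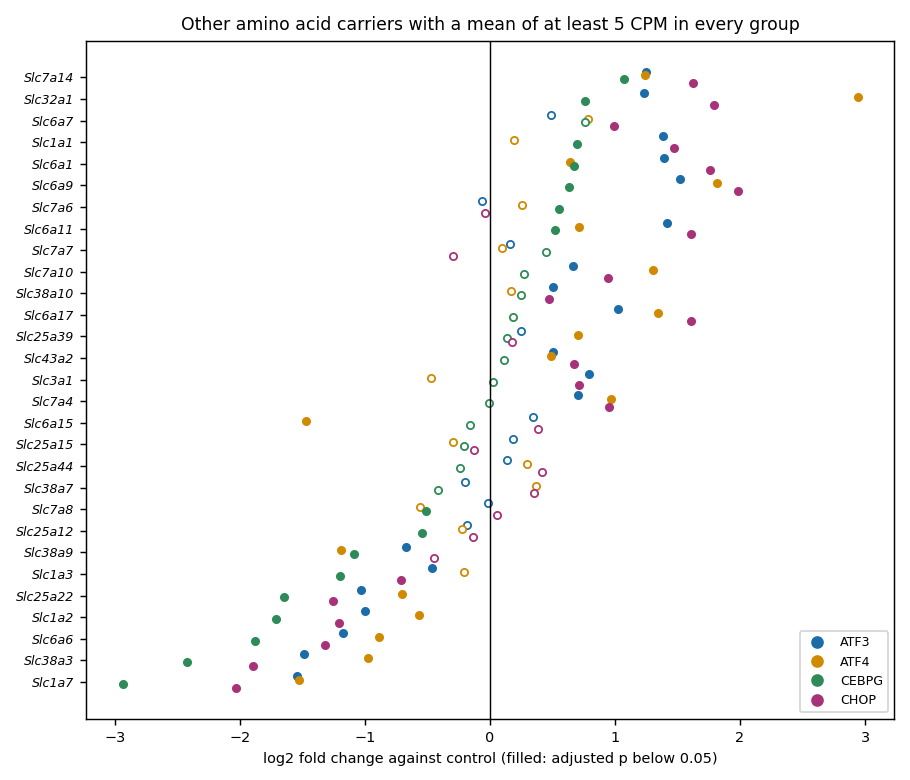
Log2 fold change against control (horizontal axis) of 29 other amino acid carriers with a mean of at least 5 CPM in every group, ordered by the CEBPG value; filled points were called. Slc1a7, Slc38a3, Slc6a6 and Slc25a22 lie to the left in each knockout, and Slc6a9 and Slc7a14 to the right.

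The rest of the pathway was read from lists of synthesis enzymes and regulators. Of 15 enzymes of amino acid synthesis, 1 was higher and 6 lower in ATF3, 1 and 2 in ATF4, 1 and 3 in CEBPG and 1 and 4 in CHOP knockouts, with medians of -0.46, 0, -0.39 and -0.37. The mitochondrial one-carbon enzyme Mthfd2 fell by 1.03 in the ATF3 (SE 0.22), 0.83 in the ATF4 (SE 0.29) and 0.89 in the CHOP knockouts (SE 0.22). In the CEBPG knockouts Bcat1 fell by 1.11 (SE 0.19), Got1 by 0.61 (SE 0.13) and asparagine synthetase, Asns, by 0.57 (SE 0.21). Asns was not called in ATF3 (-0.415), ATF4 (0.21) or CHOP (-0.37). Mthfd1l was higher in the ATF4 (1.3, SE 0.35) and CEBPG knockouts (1.1, SE 0.3). Of 20 regulators and targets of the integrated stress response, 1 was higher and 10 lower in ATF3, 1 and 6 in ATF4, 4 and 6 in CEBPG and 1 and 10 in CHOP knockouts, with medians of -0.47, -0.23, -0.31 and -0.49. The stress-induced pseudokinase Trib3 was at 35 ± 6.71 CPM in the controls and at 3.96 ± 1.7, 6.58 ± 0.016, 4.59 ± 1.47 and 2.88 ± 1.67 CPM under the ATF3, ATF4, CEBPG and CHOP guides, differences of -3.14, -2.41, -2.94 and -3.61. Within batch 3 the ATF3 knockouts had 2 synthesis enzymes higher and 2 lower than CEBPG and 0 regulators higher and 5 lower, and the CEBPG knockouts had 0 enzymes higher and 3 lower than CHOP and 6 regulators higher and 1 lower.

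Genes of glutathione and of the wider antioxidant response were read beside Slc7a11, whose cystine feeds glutathione synthesis. The list also holds Nfe2l2, Keap1, Hmox1, Nqo1, Txnrd1, Srxn1 and Prdx1, so its counts and medians are not those of glutathione synthesis alone. Of 15, 3 were higher and 2 lower in ATF3, 3 and 2 in ATF4, 4 and 4 in CEBPG and 0 and 4 in CHOP knockouts, with medians of -0.01, 0.2, 0.08 and -0.14. Gclc, the catalytic subunit of the first enzyme of glutathione synthesis, rose by 0.44 in the ATF3 (SE 0.16) and by 0.89 in the CEBPG knockouts (SE 0.17). The heme oxygenase Hmox1 was at 15.1 ± 0.819 CPM in the controls, 34.5 ± 7.45 in ATF3, 19.3 ± 1.09 in ATF4, 66.3 ± 7.21 in CEBPG and 11.5 ± 1.72 CPM in CHOP knockouts, and Nfe2l2, the factor behind the antioxidant response, fell by 0.93 in ATF3, 0.99 in ATF4 and 0.71 in CHOP. Within batch 3, 2 of the 15 were higher and 4 lower in ATF3 than in CEBPG, 3 and 0 in ATF3 than in CHOP, and 6 and 3 in CEBPG than in CHOP. Of 18 tested genes by which amino acids reach the kinase complex mTORC1, for which Slc7a5 and Slc3a2 bring in leucine, 2 were higher and 2 lower in ATF3, 4 and 1 in ATF4, 1 and 2 in CEBPG and 5 and 3 in CHOP knockouts, with medians between 0.07 and 0.2. Rheb, the small GTPase that activates the complex, rose by 0.39, 0.97, 0.43 and 0.34 in ATF3, ATF4, CEBPG and CHOP, and Sesn1, a sestrin that restrains it, fell by 0.47, 1.09, 0.7 and 0.42. Within batch 3, 2 were higher and 0 lower in ATF3 than in CEBPG, none was called between ATF3 and CHOP, and 1 was higher and 2 lower in CEBPG than in CHOP.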

How the data were processed

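RNA of sorted cells was copied with the SMART-Seq v4 kit, per the labels' protocols. STAR, Picard, HTSeq and edgeR on the mm10 build are named in the submitters' processing notes, with no version. The authors deposited raw read counts per gene for 21 libraries, a table of log2-type fold changes (its log base is not named in the sources used here) with p-values and FDR for 17100 genes, and a sample sheet, of which 38 columns were not used. The members and lists were chosen with earlier results of these data known.

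The counts were filtered with edgeR 4.0.16 (filterByExpr, minimum count 10, 16797 genes tested and 367 removed), scaled by TMM and fitted in 1 robust quasi-likelihood model of 5 groups over 20 libraries (R 4.3.3, limma 3.58.1, 15 residual degrees of freedom, common biological coefficient of variation 0.407). Benjamini-Hochberg adjusted p below 0.05 was called, the SE is the absolute log2 fold change divided by the root of F, and intervals cover 95%. Profiles used log2 CPM with a prior count of 2. Lengths are GENCODE M21 exon unions. No 2 libraries of a group were copies, since the chi-square per gene was 12.9 to 64.6 over genes with at least 20 reads. The script was tested on simulated counts. Named genes are all 9 members, up to 4 called genes per list, direction and comparison by adjusted p, and the 3 nearest profiles. Alternatives were RLE and upper quartile scaling, DESeq2 1.42.0, other filters, fewer groups, a replicate term and leaving out libraries. Protein identity between members was not analysed here.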

Additional observations from a re-analysis of the deposited data

Results flagged for a closer look

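Slc1a4 in CHOP replicate 3, at 29.7 CPM, stood above the other 4 CHOP libraries at 24.3 to 25.5 CPM, with a gap of 0.777 of the group's range. It was the single such case in 36 groups of 4 or 5 libraries tested, where chance gives about 1 in 20.

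The effect of a knockout differed between knockouts of the same batch for Slc1a5, which was -2.14 in the ATF3 against the CEBPG knockouts and 2.2 in the CEBPG against the CHOP knockouts. It differed for Slc38a1, at 0.65 and -0.83 in the same comparisons, and for Slc7a5, at -0.91 in the CEBPG against the CHOP knockouts. All 5 differences are on the log2 scale and passed the edgeR test given above.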

How the results depend on the processing

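Of 1035 refits of single members, 960 kept direction and side of the threshold, 28 lost a call, 7 gained one and 40 changed sign, none of these 40 being a called difference. The causes were not tested except where fewer libraries were fitted. Leaving out each library in turn gave 3 to 6 called members for ATF3 against control, 1 to 4 for ATF4 against control and 3 to 5 for CEBPG against CHOP (3 fitted with all). With 1 ATF4 library left, that library is assumed to vary like the other groups. A fit of the ATF3 and CHOP groups alone called 1 member instead of 0. The replicate numbers of the titles do not pair the libraries: the deviations of 12 same-numbered pairs correlated between -0.0476 and 0.0264. With a replicate block, 1 member was called for ATF4 against control, 1 for CHOP against control, 1 for ATF3 against CEBPG and 1 for CEBPG against CHOP, and the block turned Slc3a2 to 0.14, Slc7a11 to 0.46 and Slc7a1 to -0.23 (ATF4 against control), Slc1a5 to -0.32 (CHOP against control), Slc7a5 to 0.08 and Slc7a3 to 0.34 (ATF3 against CHOP) and Slc7a3 to 0.17 (CEBPG against CHOP). Over all genes, the block called 1322 in place of 5251 (ATF4 against control), 3081 in place of 5608 (CEBPG against control), 2719 in place of 5625 (CHOP against control), 1895 in place of 3419 (ATF3 against CEBPG), 11 in place of 380 (ATF3 against CHOP) and 517 in place of 4478 (CEBPG against CHOP). ATF4 against control called 3358 without ATF4 replicate 1, and ATF3 against CHOP called 679 with DESeq2, 1232 in the fit of those groups alone, 245 without ATF3 replicate 9 and 232 without CHOP replicate 4. Without CEBPG replicates 6 and 8, a choice made after seeing the data, Slc38a2 was 0.08 against control, Slc3a2 -0.13, Slc1a4 -0.23 and Slc38a2 -0.06 in ATF3 against CEBPG, and Slc3a2 0.11 and Slc7a1 0.23 in CEBPG against CHOP. Differences near 0 changed sign over the left-out libraries: against control, Slc38a2 ran from -0.13 to 0.06 in ATF3 (0.03 with upper quartile scaling, 0.01 with the filter at 1 CPM) and -0.03 to 0.17 in CHOP, Slc7a5 from -0.6 to 0.2 in ATF4 and -0.38 to 0.07 in CHOP, Slc3a2 from -0.15 to 0.01, Slc7a11 from -1.85 to 0.56 and Slc7a1 from -0.02 to 0.35 in ATF4, and Slc38a1 from 0 to 0.23 in CEBPG. Slc7a3 ran from -0.01 to 0.66 in ATF3 against CEBPG. In ATF3 against CHOP, Slc3a2 ran from -0.07 to 0.02, Slc7a3 from -0.48 to 0.06, Slc1a5 from -0.06 to 0.18 and Slc38a2 from -0.16 to 0.02, and Slc7a1 from -0.19 to 0.17 in CEBPG against CHOP. Slc7a11, Slc7a1 and Slc7a3, with fewest reads, had the widest intervals.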
